A study of Homo sapiens with 21 samples.

Results

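Collagen is made of chains wound 3 by 3 into a triple helix, and the set described here is 10 genes that encode chains of the fibrillar and interstitial collagens: COL1A1, COL1A2, COL3A1, COL5A1, COL5A2, COL6A1, COL6A2, COL6A3, COL12A1 and COL8A1. They were taken by symbol from the 23201 genes listed for HMLE, an immortalized cell line of human mammary epithelium that is in wide use, before and during treatment with TGFβ, the cytokine used to drive epithelial-to-mesenchymal transition (EMT). Untreated cells (d0) and cells after 1, 4, 7, 10, 15 and 20 days of TGFβ (d1 to d20) had 3 RNA-seq libraries each, 21 in all. Every group was the same line at the same starting density, with total RNA extracted in Trizol, and no genetic change or second agent was named. The TGFβ dose was not given in the sources used here. No untreated cells were sampled on the later days, so days of TGFβ and days in culture cannot be told apart. The paper describes the libraries as biological triplicates, but the labels do not say that those of a timepoint came from separate cultures. The p-values measure only the spread between these libraries, part of which may be technical.

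The chains have different places in the matrix. COL1A1 and COL1A2 encode the 2 kinds of chain of type I collagen, the main fibril of connective tissue, COL3A1 the single chain of type III collagen, which forms finer fibrils, and COL5A1 and COL5A2 chains of type V collagen, a minor fibrillar collagen that starts type I fibrils and sets their width. COL6A1, COL6A2 and COL6A3 encode the α1, α2 and α3 chains of type VI collagen, which assemble together into beaded filaments around cells. COL12A1 encodes type XII collagen, which sits on the surface of fibrils, and COL8A1 a chain of type VIII collagen, which forms short-chain networks. Matrix of these types is the usual product of fibroblasts, and its production by epithelial cells is a known part of EMT under TGFβ.

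The chains of type VI collagen, although they assemble together, followed different time courses, and this split ran through the whole set. The means of COL6A3, COL8A1 and COL12A1 were higher on d10 than on d7 and d15, whereas those of the other 7 chains were lower on d10 than on either of these days. Not all of these differences passed the threshold for a call given below, and those of COL12A1 passed it at neither step. RefSeq promoter sequences were at hand for 4 of the 10 genes on both sides of the split, and the 250 bases before the start of each are shown to set COL6A2 beside COL6A3, and COL5A1 beside COL12A1. The positions (GRCh38.p14) are chr9:134641553-134641802 on the plus strand for COL5A1, chr21:46097862-46098111 on the plus strand for COL6A2, chr2:237414165-237414414 on the minus strand for COL6A3 and chr6:75206054-75206303 on the minus strand for COL12A1. Each runs 5′ to 3′ along the gene's strand, with matches to the motifs in the next paragraph in capitals.
COL6A2: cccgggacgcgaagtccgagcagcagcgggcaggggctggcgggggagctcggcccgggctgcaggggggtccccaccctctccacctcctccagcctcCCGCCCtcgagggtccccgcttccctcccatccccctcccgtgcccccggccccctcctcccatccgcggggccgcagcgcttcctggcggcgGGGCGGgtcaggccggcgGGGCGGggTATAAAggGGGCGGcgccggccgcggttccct
COL6A3: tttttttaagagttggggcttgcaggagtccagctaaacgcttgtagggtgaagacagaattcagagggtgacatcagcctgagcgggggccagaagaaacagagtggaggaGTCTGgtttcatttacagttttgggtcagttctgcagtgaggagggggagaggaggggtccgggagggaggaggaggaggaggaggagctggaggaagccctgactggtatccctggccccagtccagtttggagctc
COL5A1: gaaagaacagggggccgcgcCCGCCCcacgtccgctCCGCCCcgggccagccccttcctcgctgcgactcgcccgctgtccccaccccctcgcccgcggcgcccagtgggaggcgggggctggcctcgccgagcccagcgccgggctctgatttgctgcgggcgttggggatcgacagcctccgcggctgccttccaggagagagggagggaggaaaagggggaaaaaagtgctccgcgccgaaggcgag
COL12A1: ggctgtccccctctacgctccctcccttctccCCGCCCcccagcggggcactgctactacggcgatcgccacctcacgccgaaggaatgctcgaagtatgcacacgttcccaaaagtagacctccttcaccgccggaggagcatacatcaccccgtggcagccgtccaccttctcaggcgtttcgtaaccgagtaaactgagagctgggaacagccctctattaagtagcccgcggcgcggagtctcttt

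The motifs CAGAC (the core bound by SMAD factors, which carry the TGFβ signal), GGGCGG (the GC box), CCAAT (bound by factors named for it) and TATAAA (the TATA box) were searched on both strands, and no match overlapped that of another motif in these windows. The COL6A2 window held 4 GGGCGG matches, 3 on the gene's strand and 1 on the other, and a TATAAA that starts 32 bases before the gene's start. The COL6A3 window held no GGGCGG and no TATAAA, and had 1 CAGAC match, on the opposite strand. COL5A1 had 2 GGGCGG matches and COL12A1 had 1, all on the opposite strand. These genes lie on opposite sides of the split, and neither window held another of the motifs. A second COL5A1 window, from position 134641555, held the same 2 matches. The CCAAT motif matched in none of the 4 windows. Over 35116 RefSeq promoter windows of the same length, 42.6% held GGGCGG, 38% CAGAC, 32.0% CCAAT and 10.7% TATAAA. Not shown are COL1A1, COL1A2, COL3A1, COL5A2, COL6A1 and COL8A1. Whether any of these motifs bears on the time courses was not tested.

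A gene's level is given as its normalized read count, the reads of the gene divided by a size factor of the library. Libraries held 18847917 to 22667754 reads. All 10 chains reached a mean of at least 10 over the 21 libraries and were tested with all other genes that did so, 13343 in all. The d0 means of COL5A1, COL1A2, COL6A3, COL3A1 and COL6A2 were 0, 3.06, 5.37, 7.81 and 9.22, under that limit. These chains passed through the treated days, where they were high, so their calls above d0 are in part tied to the filter. The third d7 library stood apart: over all genes tested its values differed from those of the other d7 libraries by a root mean square of 0.47 and 0.46 on the log2 scale, against 0.22 between those 2 and 0.21 to 0.24 for any other pair of one timepoint. In it, COL6A3, COL8A1 and COL12A1 were above, and the other 7 chains below, both other d7 libraries.

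**Figure D1:**
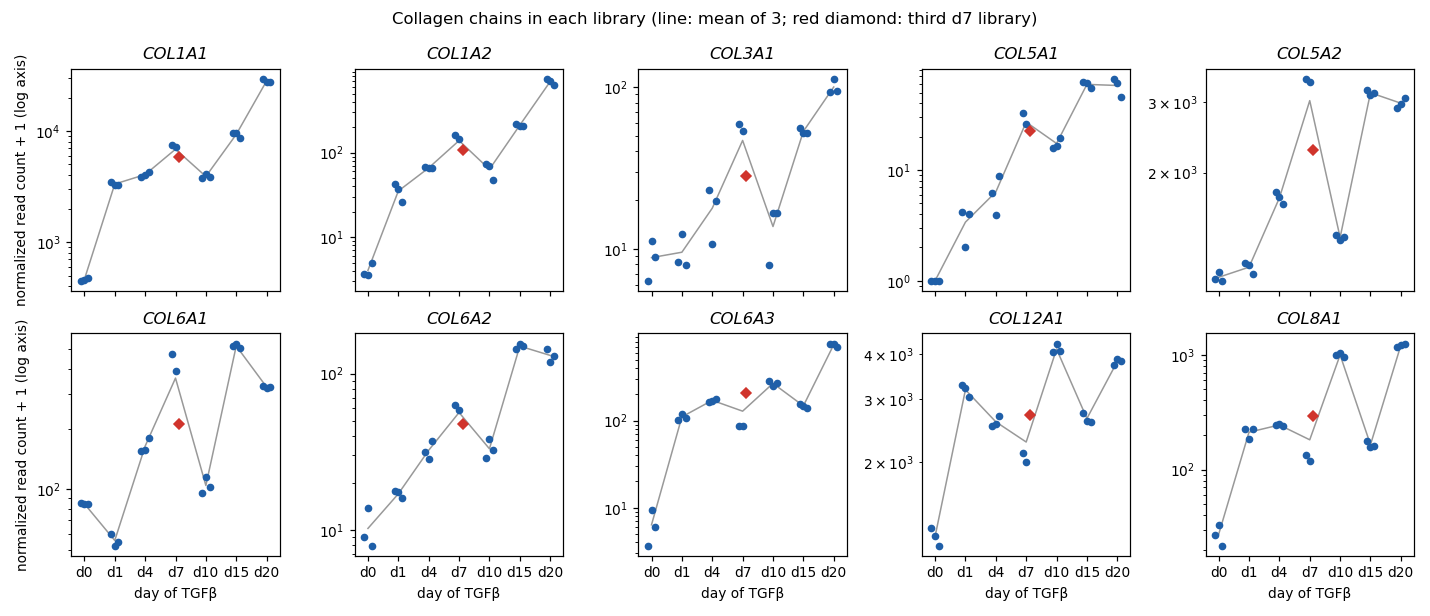
Normalized read count plus 1 (log axis) of each collagen chain in each of 21 libraries, by day of TGFβ. Points are libraries, lines join the means of 3 libraries, and the red diamond is the third d7 library, which lies below the other d7 libraries for 7 chains and above them for COL6A3, COL12A1 and COL8A1.

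Against untreated cells, every chain rose on at least 1 day and none was called lower on any day. A chain was called higher or lower at an adjusted p (limma, Benjamini-Hochberg over all 13343 genes tested) under 0.05 and at least a 2-fold change on the log2(value + 1) scale, and a rise or fall is written only of such a call. On d1, 6 of the 10 chains were higher, where 6.47% of all genes tested were called higher and 3.87% lower. The number was 7 on d4 (9.68% higher and 5.03% lower among all genes), 9 on d7 (8.79% and 2.93%) and 7 on d10 (6.94% and 7.34%). At d15 (11.7% higher and 8.66% lower among all genes) and d20 (7.51% and 4.72%) all 10 chains were higher. By limma 0 chains were lower on each of these days, likewise by edgeR and DESeq2, and at an unadjusted p under 0.05 the only chain lower was COL6A1 on d1. COL5A1 had no read on d0 and could not be lower. COL1A2, COL6A3, COL3A1 and COL6A2 had 10, 18, 26 and 31 reads on d0 in all and little room to fall. The absence of lower calls therefore says little for these chains.

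The median log2 fold change of the 10 chains against d0 was 1.52 on d1, 2.14 on d4, 2.57 on d7, 2.41 on d10, 3.27 on d15 and 4.602 on d20. COL5A1 had no read in any d0 library, and with it at its lower bound (left out on d1) the medians were 1.36, 1.38, 2.57, 2.16, 3.27 and 4.05. The median over all genes tested lay between -0.00047 and 0.031 on these days. With every library scaled to the same total that median moved to between -0.20 and -0.14, so changes are read relative to it. Together the 10 chains took 0.0159% ± 0.00054 (SD, n = 3) of all normalized counts on d0 and 0.181% ± 0.0055 on d20. COL1A1 alone accounted for most of the d20 share, between 0.129% and 0.140% in its 3 libraries. In bulk RNA, more cells that express a gene and more of its RNA per cell cannot be told apart.

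**Figure D2:**
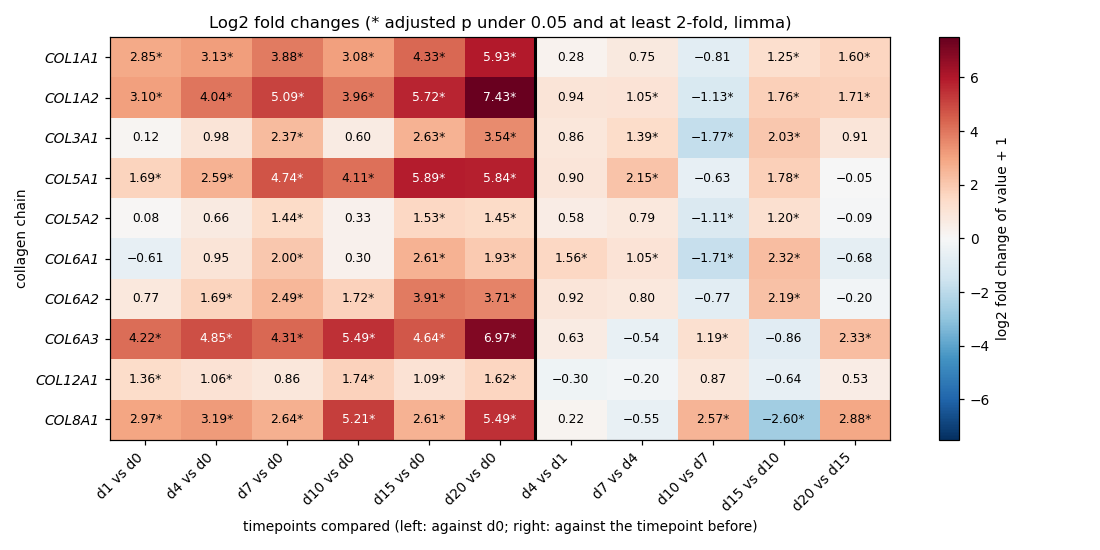
Log2 fold change of the value plus 1 of each collagen chain (rows), against d0 (left of the line) and against the timepoint before (right of it); an asterisk marks a call by limma. COL6A3, COL12A1 and COL8A1 have the opposite sign to the other chains from d7 to d10 and from d10 to d15. COL5A1 had no reads on d0, so its changes against d0 are fitted values that depend on the added 1.

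Between consecutive timepoints the calls differed from step to step. From d1 to d4 COL6A1 alone was higher (1 of 10; 4.19% of all genes tested were higher and 1.98% lower). Without d1 library 1, 2 or 3 that number was 3, 2 and 2, and without d4 library 2 it was 4. From d4 to d7 4 chains rose, COL1A2, COL3A1, COL5A1 and COL6A1 (2.27% of all genes higher, 1.51% lower), and without the first or the second d7 library 2 did.

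From d7 to d10 4 chains fell, COL1A2, COL3A1, COL5A2 and COL6A1, and 2 rose, COL6A3 and COL8A1 (3.63% of all genes higher, 9.09% lower). Without the third d7 library COL12A1 also passed (log2 fold change 1.00), giving 3, and without the first or the second only 1 was called higher. From d10 to d15 the 7 chains other than COL6A3, COL8A1 and COL12A1 rose and COL8A1 fell (12% of all genes higher, 10.2% lower). From d15 to d20 COL1A1, COL1A2, COL6A3 and COL8A1 rose (7.55% of all genes higher, 7.43% lower). By limma, edgeR and DESeq2 0 chains were called lower from d1 to d4, from d4 to d7 and from d15 to d20, and at an unadjusted p under 0.05 1, 2 and 1 were.

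COL1A1, the α1 chain of type I collagen, was already among the well-expressed chains in untreated cells and had the highest level at the end. Its normalized read counts were 449, 457 and 479 on d0, 3477, 3255 and 3271 on d1, and 3874, 4045 and 4248 on d4. They were 7469, 7251 and 5859.9 on d7, 3791, 4089 and 3829 on d10, 9567, 9648 and 8737 on d15, and 29587, 27336 and 27776 on d20. No treated library overlapped the untreated ones, and d10 lay below both neighbouring timepoints. The first day gave a 7.22-fold rise (log2 fold change 2.85 ± 0.07 SE, adjusted p = 4.2e-19), and d20 stood 61.2-fold above d0 (5.93 ± 0.07, adjusted p = 7.3e-25). A further 3.03-fold of that came between d15 and d20 (adjusted p = 1.2e-14).

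COL1A2, the α2 chain that pairs with it, was nearly silent in untreated cells, with 10 reads in the 3 libraries together. Its values were 2.67, 2.54 and 3.96 on d0, 41.8, 35.9 and 24.8 on d1, 66.3, 64.3 and 64.6 on d4, and 161, 146 and 106 on d7. They fell to 72.7, 69.0 and 46.0 on d10, then reached 216, 206 and 208 on d15 and 748, 699.9 and 625 on d20. The means of COL1A2 and COL1A1 put all timepoints in the same order, with d20 clear of d15 for both. The rise to d20 was 226-fold over d0 (log2 fold change 7.43 ± 0.19 SE, adjusted p = 1.8e-18), a ratio that rests on those 10 reads. The fall from d7 to d10 was 2.20-fold (adjusted p = 2.3e-05), whereas COL1A1 was 1.76-fold lower then, short of a call.

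COL3A1, the type III chain, came later and lower. It read 5.34, 10.2 and 7.92 on d0 and 7.32, 11.3 and 6.95 on d1, which overlap. At d4 it read 22.1, 9.74 and 18.6, with 1 library inside the d0 range, and on d7 58.0, 52.1 and 27.0. At d10 it was back at 6.97, 15.6 and 15.7, overlapping d0 again, before 55.1, 50.6 and 50.8 on d15 and 92.2, 112 and 93.0 on d20. The first call was on d7 (5.85-fold, adjusted p = 2.1e-06; the log2 fold change was 2.37, and 2.71 without the third d7 library), and d20 was 12.7-fold above d0 (log2 fold change 3.54 ± 0.33 SE, adjusted p = 6.4e-09). At d4 the change was 2.15-fold but 0.98 on the log2(value + 1) scale, just under the threshold, and edgeR and DESeq2 both called it. The gene shares some exon bases with a microRNA gene, MIR3606, and reads over those bases cannot be assigned to 1 of the 2 here.

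COL5A1 and COL5A2, both type V chains, started from opposite levels. COL5A1 had no read in any d0 library, which allows up to 3 reads a library (counting error only). Its values were 3.14, 1.03 and 2.98 on d1, all at 3 reads or fewer, so no fold is given for that day although it was among the 6 called. They were 5.26, 2.92 and 7.83 on d4, 31.7, 25.0 and 21.4 on d7, 14.9, 15.6 and 18.6 on d10, 61.2, 59.7 and 53.9 on d15 and 65.7, 60.0 and 45.04 on d20. Taken against a floor of 3 reads in each d0 library, COL5A1 was at least 9.54-fold higher on d7, at least 21.4-fold on d15 and at least 20.9-fold on d20. The d15 and d20 values overlap, and the change between them was not called (adjusted p = 0.89).

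COL5A2, in contrast, was one of the strongest chains before treatment, with 1081, 1127 and 1072 on d0 and 1186, 1176 and 1114 on d1. It read 1786, 1732 and 1664 on d4, 3436, 3362 and 2284 on d7 and only 1396, 1356 and 1376 on d10. At d15 it was back at 3217, 3126 and 3163, and on d20 it read 2898, 2968 and 3083. The first and second d7 libraries thus lay above all d15 libraries, and d10 lay between d1 and d4. The gene was called on d7 (2.77-fold, log2 fold change 1.44 ± 0.09 SE), d15 (2.90-fold) and d20 (2.73-fold, adjusted p = 9.7e-12). It fell 2.20-fold from d7 to d10 (adjusted p = 1.0e-09) and rose 2.30-fold from d10 to d15 (adjusted p = 1.0e-10).

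The type VI chains divided. COL6A1 read 84.5, 83.1 and 83.1 on d0 and was below all of these on d1, with 58.6, 51.3 and 53.6, 1.53-fold lower (adjusted p = 0.0046) and short of the 2-fold threshold. It read 155, 156 and 178 on d4, 473, 388 and 211 on d7, 94.5, 114 and 102 on d10, 514, 532 and 506 on d15 and 328, 318 and 321 on d20. It was the only chain whose d1 libraries all lay below untreated cells, and it peaked on d15, not on d20. It was 6.19-fold above d0 on d15 (log2 fold change 2.61 ± 0.17 SE, adjusted p = 1.0e-11) and 3.85-fold on d20 (1.93 ± 0.17). From d7 to d10 it fell 3.46-fold (log2 fold change -1.71, and -2.04 without the third d7 library, in which it was lowest) and from d10 to d15 it rose 5.01-fold.

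COL6A2 started at 8.01, 12.7 and 6.93, a total of 31 reads, and read 16.7, 16.4 and 14.9 on d1 and 30.5, 27.3 and 36.2 on d4. The d7 values were 62.3, 57.3 and 46.5, and those on d10 27.9, 36.9 and 31.3. It then read 142, 155 and 150.2 on d15 and 143, 117 and 129 on d20, which overlap. Every treated library lay above every untreated one, but d1 (1.74-fold) was not called. It was 3.40-fold above d0 on d4 and 14.1-fold on d20 (log2 fold change 3.71 ± 0.19 SE, adjusted p = 1.6e-13).

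COL6A3, whose chain is the longest of the type VI trimer, took the other course. It read 2.67, 8.48 and 4.95 on d0, a total of 18 reads, and 101, 119 and 107 after 1 day. It read 163, 168 and 177 on d4 and 86.5, 86.5 and 208 on d7, the third d7 library being the high one. It was then 285, 248 and 266 on d10, 154, 147 and 139 on d15 and 764, 759.9 and 701 on d20. Its d10 libraries were all above d7 and d15, the reverse of COL6A1 and COL6A2. The rise over d0 was 20.3-fold on d1 (log2 fold change 4.22 ± 0.27 SE, adjusted p = 1.3e-11) and 138-fold on d20 (6.97 ± 0.27, adjusted p = 1.7e-15), on the 18 reads of d0. From d15 to d20 it rose 5.06-fold (adjusted p = 9.6e-08), whereas COL6A1 was 1.61-fold lower and COL6A2 1.15-fold lower, neither called. From d4 to d7 its log2 change was -0.54 (adjusted p = 0.097) and, without the third d7 library, -0.96 (adjusted p = 2.3e-05).

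COL8A1, of the type VIII network, showed the largest swings of the set between neighbouring timepoints after d1. It read 25.8, 32.2 and 20.8 on d0, 224, 185 and 223 on d1, 245, 249 and 237 on d4 and 134, 118 and 290.4 on d7. The d10 values were 995, 1032 and 957, those on d15 176, 156 and 158, and those on d20 1166, 1205 and 1250.5. The level on d15 was thus below every d1 library, with d10 and d20 several times above. It rose 5.504-fold from d7 to d10 (log2 fold change 2.57 ± 0.21 SE, adjusted p = 7.2e-10), fell 6.07-fold to d15 (adjusted p = 2.2e-10) and rose 7.37-fold to d20 (adjusted p = 7.3e-11). Against d0 it was 37.9-fold higher on d10 and 45.9-fold on d20. Without the third d7 library its log2 change was 2.97 from d7 to d10 and 2.24 from d0 to d7.

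COL12A1, the chain on the surface of fibrils, moved in the same direction as COL8A1 at each step from d7 on, with a small amplitude. It read 1308, 1238 and 1167 on d0, 3283, 3214 and 3031 on d1, 2516, 2556 and 2685 on d4 and 2122, 1998 and 2694 on d7. It read 4037, 4274 and 4063 on d10, 2735, 2601 and 2589 on d15 and 3715, 3875 and 3833 on d20. It was the only chain with its highest mean on d10. It was 2.57-fold above d0 on d1 (log2 fold change 1.36 ± 0.07 SE, adjusted p = 5.7e-13) and 3.08-fold on d20 (1.62 ± 0.07). At d7 it was 1.83-fold above d0 and was not called, the only chain of the 10 without a call that day. From d10 to d15 its log2 change was -0.64 and from d15 to d20 0.53, both under the 2-fold threshold.

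The division on d10 was also the one seen in the third d7 library. That library held COL6A3, COL8A1 and COL12A1 above and the other 7 chains below its fellows, and from d10 to d15, a comparison without any d7 library, the same 3 had negative and the same 7 positive log2 changes. These sets were drawn from the values themselves, so no test is attached to them. The split was itself described from d10 against d7 and d15, so the signs from d10 to d15 are part of it. The third d7 library stood apart over all genes tested, and the share of all genes with such a match was not counted. Whether the match is particular to these chains was thus not tested. As a description over the 21 libraries, which share 7 timepoints, Pearson's r of log2(value + 1) was 0.99 between COL1A1 and COL1A2, 0.97 between COL5A2 and COL6A1, 0.95 between COL5A1 and COL6A2 and 0.95 between COL12A1 and COL8A1. COL6A3 had r = 0.93 with COL8A1 and 0.91 with COL12A1. Across the division COL6A3 had r = 0.90 with COL1A1 and 0.88 with COL1A2, so that r over all libraries does not follow it. Within type VI, COL6A2 and COL6A3 had r = 0.71 and COL6A1 and COL6A3 r = 0.40.

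Lengths were needed to set the chains against each other, and levels are given as normalized read counts per kilobase of coding sequence. At d0 the order was COL5A2 (243 per kb), COL12A1 (135), COL1A1 (105), COL6A1 (27.1), COL8A1 (11.8), COL6A2 (3.02), COL3A1 (1.78), COL1A2 (0.746), COL6A3 (0.563) and COL5A1 (0). The ranges of COL6A2 and COL3A1, and of COL1A2 and COL6A3, overlapped there, and all other neighbours were apart. At d20 COL1A1 stood first with 6428 per kb ± 272 (SD, n = 3), followed by COL5A2 (663), COL8A1 (541), COL12A1 (414), COL1A2 (169), COL6A1 (104), COL6A3 (77.8), COL6A2 (42.4), COL3A1 (22.5) and COL5A1 (10.3). No neighbours overlapped on d20. At d10 COL12A1 (449) and COL8A1 (446) overlapped per coding length but lay apart per kilobase of whole transcript (352 and 174). Per kilobase of whole transcript, which is much longer than the coding part for COL8A1, COL12A1 and COL8A1 changed places on d20.

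**Figure D3:**
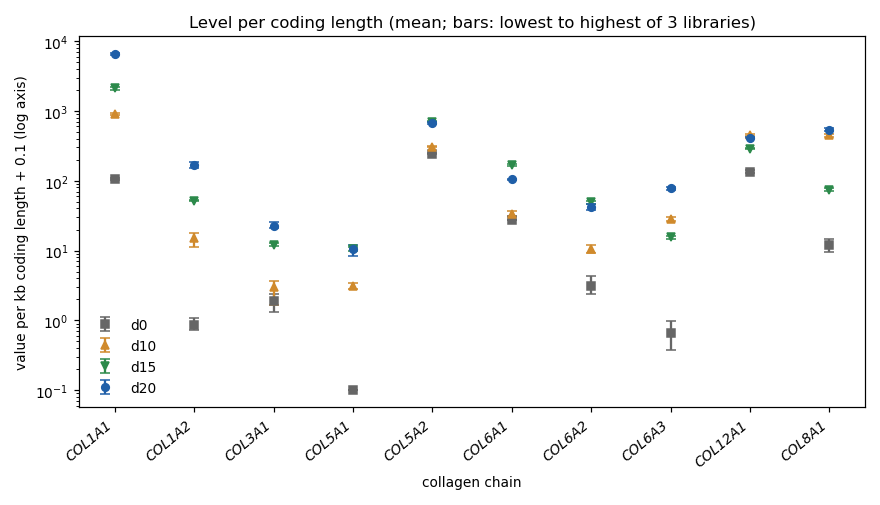
Normalized read count per kilobase of coding sequence plus 0.1 (log axis) of each collagen chain on d0, d10, d15 and d20; points are means and bars run from the lowest to the highest of 3 libraries. COL1A1 rises from 105 to 6428 per kb between d0 and d20, and COL8A1 is near 446 on d10 but at 73.4 on d15.

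The ratio of the chains of one collagen type was not constant. A type I molecule takes α1 and α2 chains, and COL1A1 exceeded COL1A2 in every library. Per coding length the ratio was 95.1 ± 24.5 (SD, n = 3) on d1, 58.2 ± 3.41 on d4, 47.0 ± 4.22 on d7, 60.6 ± 15.2 on d10, 41.4 ± 2.25 on d15 and 38.3 ± 2.79 on d20, with no ratio on d0 because COL1A2 was at 3 reads or fewer in a library. The d20 and d15 ratios overlapped (log2 difference -0.11, exact permutation p = 0.30, two-sided). COL5A1 stayed far below COL5A2, with a ratio of 0.0071 ± 0.00087 on d7, 0.0097 ± 0.0012 on d10, 0.0150 ± 0.00095 on d15 and 0.0156 ± 0.0034 on d20. The d20 and d15 ratios of this pair did not separate either (log2 difference 0.04, exact permutation p = 0.80), and the sign of that difference turned on single libraries.

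Among the type VI chains, COL6A1 led COL6A2 by 9.61 ± 2.80 on d0, 3.38 ± 0.25 on d1, 5.19 ± 0.42 on d4, 6.24 ± 1.57 on d7, 3.21 ± 0.16 on d10, 3.45 ± 0.13 on d15 and 2.48 ± 0.21 on d20. The d20 libraries were all below the d0 libraries (log2 difference -1.91) and below the d15 libraries (-0.48). COL6A1 relative to COL6A3 was 1.55 ± 0.23 on d1, 2.97 ± 0.13 on d4, 1.21 ± 0.20 on d10, 10.9 ± 0.53 on d15 and 1.34 ± 0.064 on d20, a log2 difference of -3.02 between d20 and d15. At d7 it was 11.3 ± 7.23, with the third library at 3.13 and the highest at 16.9. COL6A2 relative to COL6A3 was 0.459 ± 0.048 on d1, 0.575 ± 0.067 on d4 and 0.379 ± 0.080 on d10. At d7 it was 1.67 ± 0.85, with the third library at 0.696. It went from 3.18 ± 0.27 on d15 to 0.546 ± 0.058 on d20 (log2 difference -2.54), so d20 was near d1 and d4. Each of these 4 type VI comparisons had an exact two-sided permutation p of 0.10, the smallest that 3 against 3 can give, and 0.15 after Benjamini-Hochberg adjustment over the 6 ratio comparisons made, so none could pass 0.05.

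**Figure D4:**
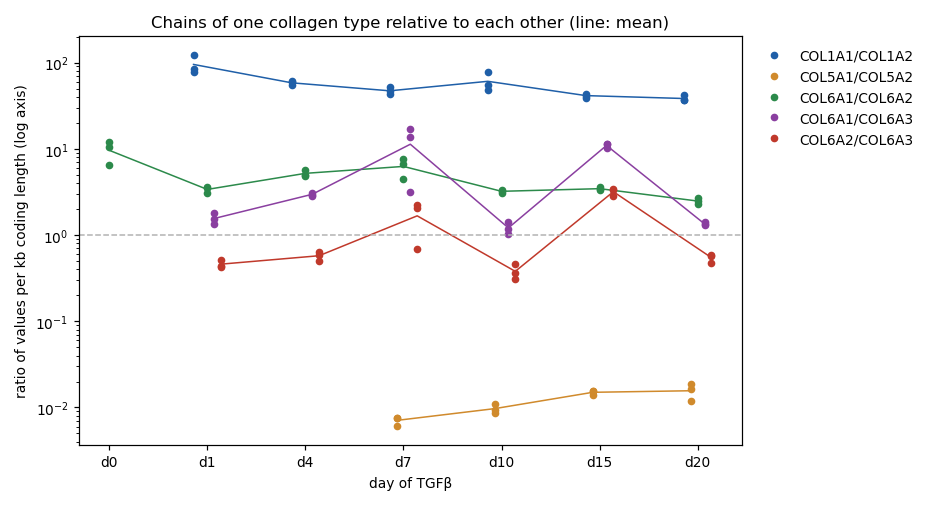
Ratio of normalized read counts per kilobase of coding sequence (log axis) between chains of type I, V and VI collagen, by day of TGFβ, where all 3 libraries held more than 3 reads of both chains; points are libraries and lines join means. COL6A1/COL6A3 stands at 10.9 on d15 and 1.34 on d20, while COL1A1/COL1A2 lies between 38.3 and 95.1 in its means.

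The other genes of the collagen pathway were followed as lists. Of 21 other fibrillar and interstitial chains, 20 were listed and 7 were tested, with 3 higher and 1 lower on d20 (median log2 fold change 0.52). Here and for each list that follows, the count is to be read against 7.51% of all genes higher and 4.72% lower on d20, and the median against -0.00047. The 3 were COL22A1, a junction-associated chain that went from 5.33 ± 2.06 (SD, n = 3) on d0 to 578 ± 7.24 on d20, COL5A3, another type V chain (30.01 ± 4.89 to 202 ± 1.77), and COL27A1, a fibril-forming chain (406 ± 11.6 to 1207 ± 73.0). COL2A1, the cartilage fibril chain, was lower on d20 (13.98 ± 3.21 against 51.7 ± 3.27, adjusted p = 7.6e-05). It had been higher on d15 (164 ± 5.12), and its d10 mean was 11.1 ± 3.45. On d7 it was called higher, with 254 and 229 in the first and the second library, but the third, at 61.4, was close to the d0 range of 48.1 to 54.4. Among genes of this list and those that follow called higher on d20, COL22A1, CREB3L1, ADAMTS14, POSTN, DDR2 and MMP1 had d0 means under 10. They passed the filter through the treated days and had little room to fall, so their calls are in part tied to the filter.

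For chain modification and folding in the endoplasmic reticulum, 18 of 19 genes were tested, with 7 higher and 0 lower on d20 (median 0.51). CREB3L1, a membrane-bound transcription factor of the secretory pathway, went from 2.7 ± 1.69 on d0 to 433 ± 38.8 on d15 and 449 ± 21.8 on d20 (log2 fold change 7.05). P4HA3, a prolyl 4-hydroxylase subunit, went from 19.2 ± 3.93 to 345 ± 5.08 on d20, and LEPREL2, a prolyl 3-hydroxylase, from 435 ± 14.1 to 1355 ± 57.4. PLOD2, the lysyl hydroxylase of the collagen ends, was at 1809 ± 57.9 on d0, 3124 ± 80.3 on d7, 5508 ± 121 on d10, 2980 ± 87.2 on d15 and 6370 ± 135 on d20. Like COL8A1 it was higher on d10 and d20 than on d7 and d15; it was higher on d7 than on d15, and so was COL8A1 in the mean of 3 libraries (181 and 164), but not without the third d7 library (126). The collagen chaperone SERPINH1 was at 3977 ± 135 and 4732 ± 88.9, a log2 difference of 0.25 that was not called.

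Of 8 propeptide processing genes 7 were tested and 2 were higher on d20 (median 0.91). These were TLL1, a tolloid protease (407 ± 10.8 to 977 ± 40.8), and ADAMTS14, an aminopropeptidase (5.80 ± 1.4 to 24.2 ± 5.33). Of 5 cross-linking genes 4 were tested and 3 were higher (median 1.67), all of them lysyl oxidases. LOX was at 322 ± 16.7 on d0, 10039 ± 1558 on d7 (8345 in the third library and a mean of 10887 in the others), 992.5 ± 68.7 on d10, 12325 ± 350.3 on d15 and 3197 ± 167 on d20, so that it was low on d10 as COL5A2 and COL6A1 were. LOXL1 went from 43.0 ± 8.18 to 186 ± 12.2 on d20, and LOXL2 from 1315 ± 4.69 to 3115 ± 115.

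Of 13 fibril assembly partners 8 were tested and 6 were higher on d20 (median 2.16). Among those not tested, DCN, LUM, FMOD and ASPN had at most 1 read in any library. FN1, fibronectin, on which cells lay down collagen, went from 4243 ± 182 on d0 to 539309 ± 7073 on d20 (log2 fold change 6.99), and it was already at 155910 on d1 in the mean. THBS1, thrombospondin, went from 7040 ± 361 to 134301 ± 4557, and TNC, tenascin C, from 699 ± 21.7 to 3629 ± 120. POSTN, periostin, had no read on d0 and was at 681 ± 22.5 on d20. These 4 are matrix proteins, and 2 of the 8 were not called.

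Of 9 receptors 7 were tested and 4 were higher on d20 (median 1.03). Among the 4 were ITGA1, a collagen-binding integrin chain (79.1 ± 6.80 to 244 ± 6.54), and its partner ITGB1 (21116 ± 145 to 43223 ± 1046). The others were the collagen receptor kinase DDR2 (4.18 ± 1.19 to 14.1 ± 0.66) and MRC2, which takes up collagen (3493 ± 62.4 to 9005 ± 265). Of 8 degradation genes 6 were tested and 5 were higher (median 3.41). The gelatinases MMP9 and MMP2 went from 39.8 ± 6.53 to 2805 ± 166 and from 60.5 ± 10.4 to 1920 ± 20.9, the collagenases MMP1 and MMP14 from 5.84 ± 3.12 to 32.4 ± 6.45 and from 5855 ± 85.7 to 24283 ± 488, and the serine protease FAP from 24.3 ± 5.06 to 539.9 ± 25.4. By limma 0 genes were called lower on d20 in the lists from modification to degradation, and at an unadjusted p under 0.05 DDR1 (log2 fold change -0.40), a collagen receptor kinase, and THBS2 (-0.58), a thrombospondin, were. For genes with d0 means under 10 the absence of lower calls says little.

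**Figure D5:**
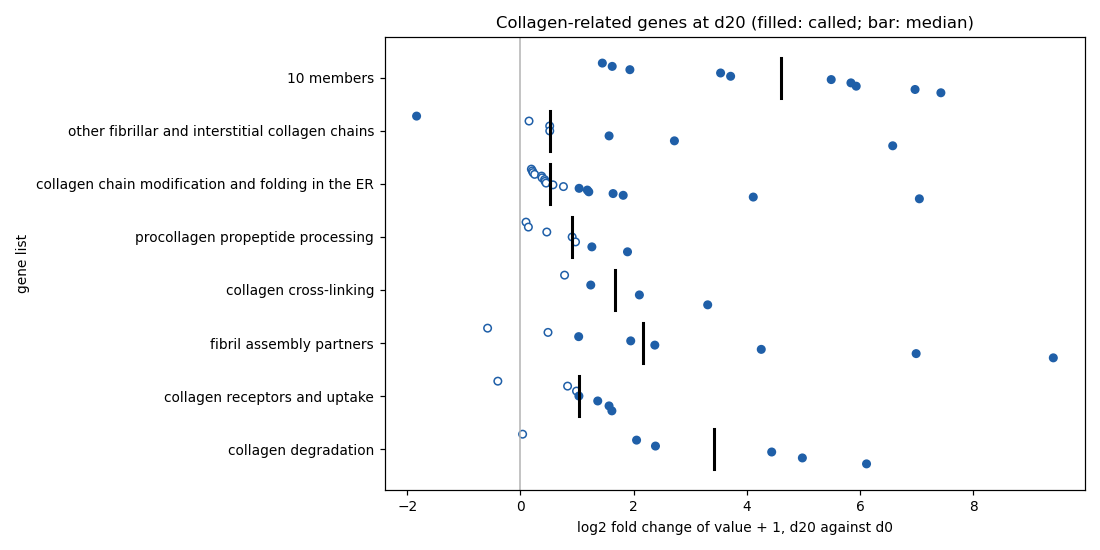
Log2 fold change of the value plus 1 on d20 against d0 for the 10 collagen chains and for the tested genes of 7 collagen-related lists. Filled points were called by limma, open ones were not, and bars are medians. The median is 4.602 for the chains and 0.51 for modification and folding. COL5A1 and POSTN, without reads on d0, are at fitted values that depend on the added 1.

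The epithelial label of the line held on its markers: EPCAM, CDH1, KRT5, KRT14, KRT8 and KRT18 were all expressed in every library. At d20 3 of the 6 were lower, EPCAM by a log2 fold change of -2.39, CDH1 by -1.33 and KRT5 by -1.04. The summed level of the 6 was 309993 to 331468 on d0, 256236 to 266401 on d1, 239787 to 248157 on d4, 184849 to 187110 on d10, 311738 to 324160 on d15 and 216271 to 217958 on d20. At d7 it was 512050, 479903 and 280499 in the first, the second and the third library. From d7 through d10 to d15 the sum, most of it KRT5 and KRT14, went in the same direction as the 7 chains that were low on d10, and it was lowest on d7 in the third library. From d15 to d20 it went down while COL1A1 and COL1A2 rose, and from d0 to d4 it went down too. EPCAM and KRT18 took another course: their means were 297 and 3293 on d7, 454 and 7212 on d10, and 391.7 and 4359.5 on d15, and both were highest on d7 in the third library. The part of these markers in the collagen values was not tested.

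Of the markers of other cell types, some were at or near 0 and others were not. PTPRC and CD3E of leukocytes and CDH5 of endothelium had at most 1 read in any library, and VWF at most 13. The 4 leukocyte markers summed to 413 to 424 on d0, 538 to 549 on d1, 803 to 834 on d4, 553 to 706 on d7, 354 to 412 on d10, 739.9 to 795 on d15 and 636 to 678 on d20, nearly all of it CD68, a lysosomal protein of many cell types. CD14 had a mean of 46.4 on d0 and of 7.2 to 16.4 on the treated days, and the endothelial gene PECAM1 had 41.3 on d0 and 9.1 to 14.7 later. The 4 endothelial markers summed to 81.1 to 105 on d0, 23.0 to 31.8 on d1, 68.5 to 98.9 on d4, 22.9 to 23.5 on d10, 268 to 289.7 on d15 and 25.4 to 40.2 on d20. The sum was 245, 207 and 67.0 in the d7 libraries in order, a course set by KDR, at 229, 197 and 43.7 there. KDR, the VEGF receptor, was thus lowest on d7 in the third library, as COL6A1 was, with the defining endothelial gene CDH5 at most at 1 read.

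For each chain, the genes most like it were those with the largest Pearson's r over the 21 libraries among all 13343 genes tested. COL1A1 was most like COL1A2 (0.99), TMEM92 (0.97) and MAN1A1 (0.97), and COL1A2 like COL1A1, FBLN5 (0.97) and MAN1A1 (0.96). COL3A1 was nearest to GLIPR2 (0.94), COL5A2 (0.93) and PLA2R1 (0.93), and COL5A1 to DPT (0.97), TRAM2 (0.97) and TP53I11 (0.97). COL5A2 was nearest to MYL9 (0.97), F2R (0.97) and COL6A1 (0.97), and COL6A1 to F2R (0.98), COL5A2 (0.97) and SELM (0.96). COL6A2 was nearest to IGFBP4 (0.98), SERPINA1 (0.97) and FBLN5 (0.97). On the other side of the split, COL6A3 was nearest to GPR176 (0.98), QSOX1 (0.98) and PLCB4 (0.97), COL12A1 to MGLL (0.98), RFTN1 (0.98) and DLC1 (0.98), and COL8A1 to NCEH1 (0.99), HECW2 (0.97) and CD163L1 (0.97). No gene was named for chains on both sides of the split. The nearest genes were picked from the same values that gave the split, so this is not a separate result. The overlap to be expected without a split was not worked out. Over the means of the 7 timepoints in place of libraries, 14 of these 30 pairs were again among the nearest 3.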

How the data were processed

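Total RNA of untreated and TGFβ-treated HMLE cells was sequenced after standard Illumina library preparation, in 3 libraries at each of 7 timepoints. The authors deposited one table of normalized signal, in which the reads of a gene are divided by a size factor per library. The submitters' processing notes name hg19, STAR 2.7 and Salmon 1.4, with no role or order, and no test or annotation is given in the sources used here for these libraries. Whole reads were recovered for 100% of values (within 0.0051 plus 2e-05 of the value), which gave the depths. This tolerance grows with the value, so for the highest genes, such as FN1, any value would pass. Columns were mapped to timepoints by name. They carry no replicate number, so libraries are numbered in column order as names only. All columns were used.

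The test was limma 3.58.1 (R 4.3.3) on log2(value + 1), with a mean for each timepoint and all 21 libraries in one fit, and was run over the 13343 of 23201 genes whose mean reached 10. A call required an adjusted p (Benjamini-Hochberg within the comparison) under 0.05 and a log2 fold change of at least 1. A log2 fold change on this scale understates the change of low genes, and a fold is the ratio of mean values. A fold against a group at 3 reads or fewer per library is given as a bound. Ratios of chains were compared by exact permutation tests in scipy 1.17.1. Coding lengths came from GENCODE v29, the longest coding transcript of each gene, because a protein table was not at hand. Motifs were searched in RefSeq promoters (GRCh38.p14), whose coordinates only locate the printed letters. Scripts were tested on simulated data. On the recovered reads, edgeR 4.0.16 called 985 genes higher and 676 lower at d20 against d0, DESeq2 1.42.0 called 1005 and 658, and limma 1002 and 630.

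The members and lists were chosen with earlier results of these data known. Named are all 10 chains, of each list up to 4 genes called with the largest change at d20, and any gene behind a count of 5 or fewer. For each chain the 3 genes most like it are named too. SERPINH1, PLOD2 and LOX at other days and COL2A1 at other days were picked after their values were seen. Alternatives were another pseudocount (10), no filter, the same total, quantile normalization, fits on only the 2 timepoints compared, edgeR, DESeq2 and leaving out each library; full transcript length was added after seeing the data. One of the leukocyte markers listed at the outset is not reported here.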

Additional observations from a re-analysis of the deposited data

How the results depend on the processing

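No paired analysis was possible because no column of the table names a replicate. Of 328 alternative values for the 28 counts and ratios, 317 were held unchanged, 8 counts moved and 3 ratios turned sign. A count was held unchanged if it stayed close to the main count, and a ratio if it kept its sign. Among such counts, single libraries left out gave 6 to 7 chains higher on d1 and 7 to 8 on d4 against d0. They also gave 3 to 4 chains lower from d7 to d10. Leaving out single libraries gave 1 to 4 chains higher from d1 to d4 (1 with all libraries), 2 to 4 from d4 to d7 (4) and 1 to 3 from d7 to d10 (2), and a log2 difference in COL5A1/COL5A2 between d20 and d15 from -0.10 to 0.22 (0.04 with all), with -0.10 without the first and -0.012 without the second d20 library and -0.016 without the third d15 library. Of 1430 single-gene values, 7 turned sign, all of changes that were not called. COL3A1 at d1 against d0 went to -0.051 with the same total, -0.051 with quantile normalization, -0.10 without the first d0 library and -0.08 without the second d1 library, in a range up to 0.31 over single libraries left out. COL5A2 at d1 went to -0.11 with the same total, and COL5A1 from d15 to d20 to 0.13 with quantile normalization and, over single libraries left out, from -0.16 to 0.11, the last without the third d20 library. A further 14 single-gene values dropped below and 15 came above the call threshold. Low reads at d0 limit the folds of COL1A2, COL5A1 and COL6A3. For each of these results the cause of the change was not tested.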
